A study of Rattus norvegicus with 743 samples.

Results

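Ritonavir, an inhibitor of the HIV protease, was given to 6 male Han Wistar rats at 400 mg/kg/day for 4 days, and their livers are described here at the level of the transcriptome. The 6 ritonavir libraries, 1 per animal, were taken from a series of 743 libraries of 680 rats by their treatment label. Their controls were the 4 libraries with the same study, batch number and vehicle label, from 4 male Han Wistar rats given the vehicle of 80% propylene glycol and 5% ethanol in water. The series profiled rat liver by sequencing of poly(A)-selected RNA after repeated daily dosing with many pharmaceuticals, and animals were killed 24 hours after the last dose. The labels give no age. The vehicle animals of the study were given the same solvents without the drug. Whether the solvents altered the response to ritonavir was not tested.

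Ritonavir is used in patients mainly at low dose, as an inhibitor of the drug-metabolising enzyme CYP3A that slows the breakdown of other antiviral drugs. It is also known as an activator of the pregnane X receptor (PXR), a nuclear receptor of hepatocytes that senses foreign compounds and raises the transcription of enzymes and transporters that remove them. The proteasome is the barrel-shaped protease that degrades ubiquitin-tagged proteins. Ritonavir has been described as a modulator of its activity in cultured cells.

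Total counts were 15105707 to 26931966 in the vehicle animals and 18077006 to 24087918 in the ritonavir animals, and RNA integrity numbers were 8.2 to 8.5 and 7.9 to 8.5. The lowest integrity number belonged to ritonavir animal 4. In 12 of the 231 genes described ritonavir animal 1 stood apart from the other 5 by Dixon's criterion, and in all 12 it was the one nearest to the vehicle animals. The raw file names place the libraries on 4 flow cells, of which 1 held 2 vehicle and 2 ritonavir animals, 2 held 1 of each and 1 held 2 ritonavir animals and no vehicle animal. Values are CPM, counts scaled to a common library size after TMM normalization. Changes are log2 fold changes of ritonavir over vehicle with their standard error. That error was derived from the test, as the absolute log2 fold change over the square root of edgeR's quasi-likelihood F statistic. "Rose" and "fell" mean an adjusted p under 0.05 in edgeR's quasi-likelihood test, with Benjamini-Hochberg adjustment over all genes tested. Of 12822 genes tested, 5346 changed, 2907 of them higher and 2439 lower, which is 41.7% of the genes tested (22.7% higher and 19% lower). In 3915 genes, 30.5%, the CPM values of the groups did not overlap. These shares are the background against which each count of a gene list below is to be read. The median log2 fold change of all genes was 0.01. Of the genes that changed, 1200 did so by at least 1 on the log2 scale (725 higher, 475 lower), 285 by at least 2 (202 higher, 83 lower) and 107 by at least 3 (84 higher, 23 lower). Within the flow cell that held 2 animals of each group, 3184 genes changed, 1649 higher and 1535 lower.

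**Figure D1:**
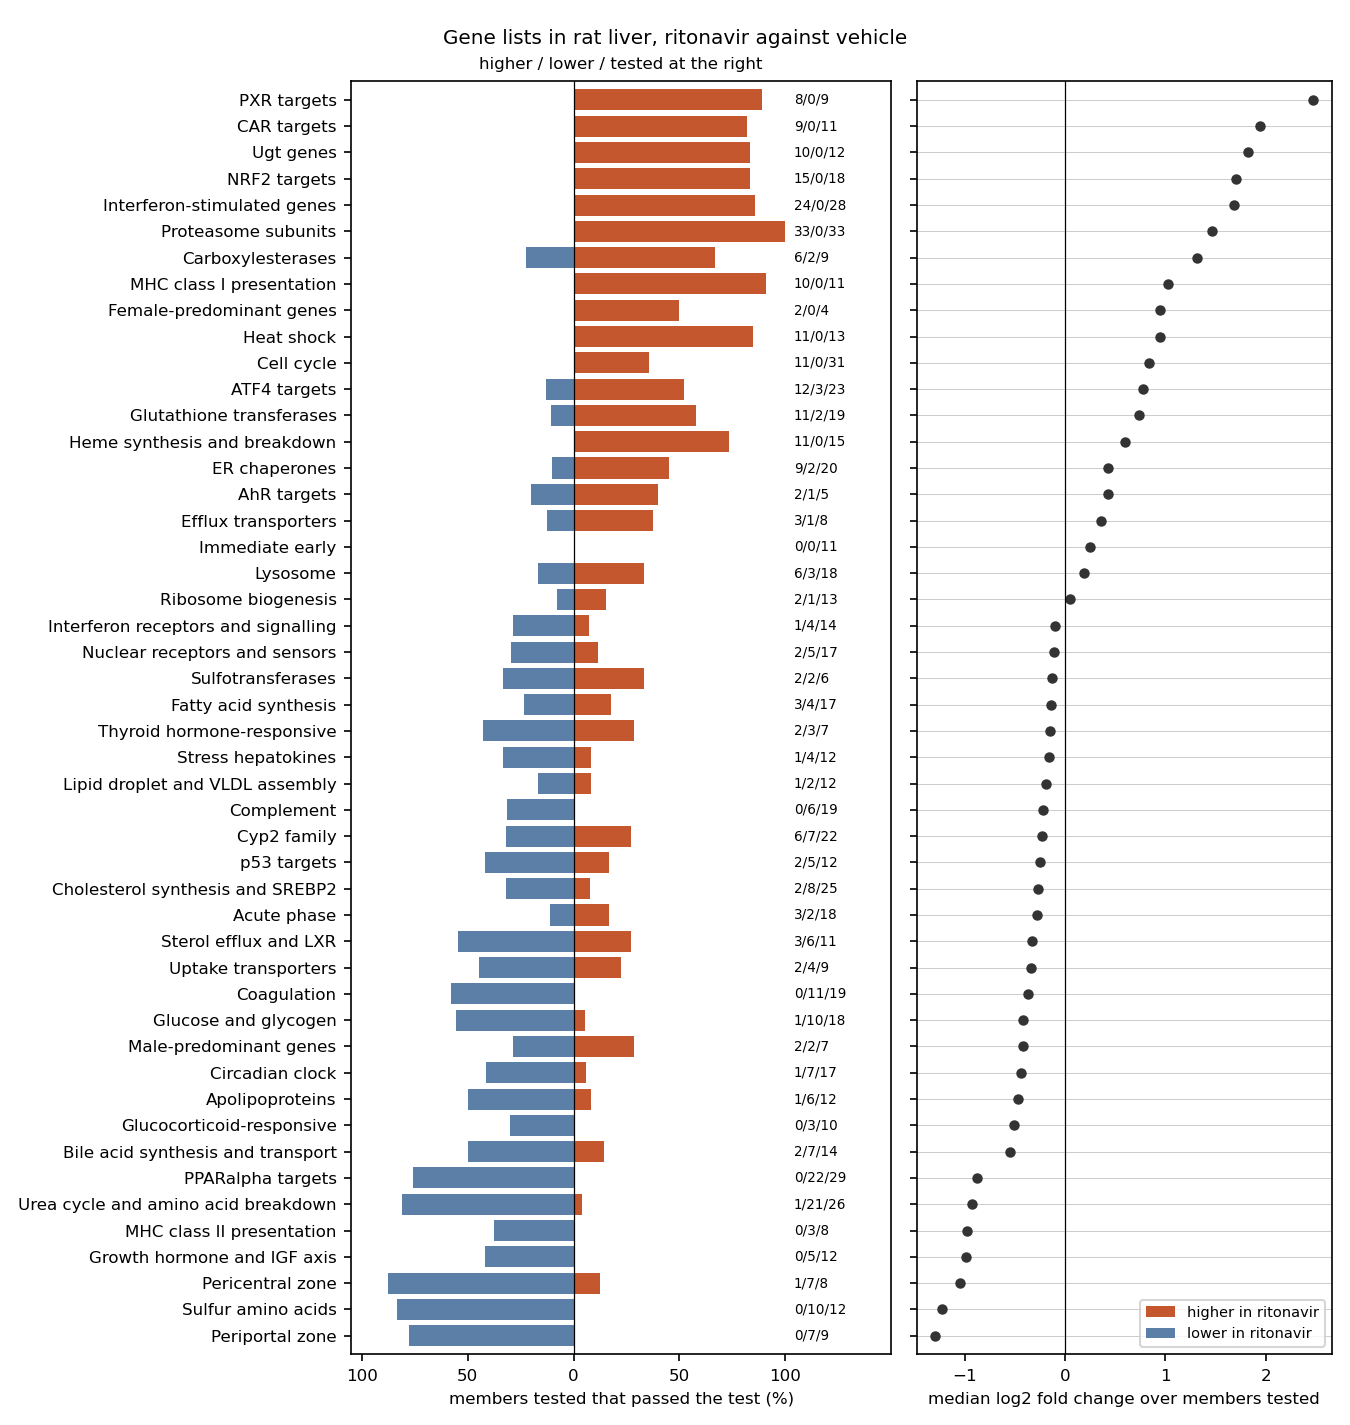
Members of each gene list that rose (orange, to the right) or fell (blue, to the left) after ritonavir, as a percentage of the members tested, with the numbers higher, lower and tested beside the bars, and on the right the median log2 fold change over the members tested. PXR targets have the highest median, 2.47, all 33 proteasome subunits rose, and genes of the periportal zone have the lowest median, -1.29.

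Cyp3a23/3a1 (ENSRNOG00000032560), the main inducible CYP3A gene of the rat and a standard target of PXR, was at 2656, 2417, 2412 and 3754 CPM in the 4 vehicle animals. In the ritonavir animals it ran from 36389 to 53252 with a median of 46553 CPM. The groups were far apart, and the treated animals differed little among themselves. The log2 fold change was 4.06 ± 0.19 (adjusted p = 2.9e-08). Cyp3a2, a male-predominant CYP3A gene, had no row in the Ensembl-based table. In the deposited table of RefSeq genes it was at 4920.1, 3910.0, 4514 and 6604 CPM in the vehicle animals and ran from 7737 to 12936 with a median of 9435 CPM in the ritonavir animals, with no overlap and a log2 fold change of 0.97 ± 0.18 (adjusted p = 0.001). Cyp3a18 rose by 2.47 ± 0.34 and Cyp3a62 by 1.44 ± 0.28 on the log2 scale. Cyp3a9 did not pass the test (0.28 ± 0.36, adjusted p = 0.57). The Cyp3a genes share long stretches of sequence, so reads may be split among them and their separate values are uncertain.

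The promoters of both genes are shown because, of the 10 listed PXR targets with a promoter in the RefSeq table (build GRCr8), they were the only 2 that held a direct repeat of AGTTCA with a spacer of 3 bases. This repeat, AGTTCANNNAGTTCA, is the arrangement to which PXR was first described to bind in rat CYP3A genes. It was searched on both strands in windows of 300 bases, 250 before and 50 after the start of each gene. Of 27457 promoters in the table, 2 held it (0.00728%), and these were the same 2. The everted repeat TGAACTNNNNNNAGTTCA was in 0 of the 10 and in 0 of all promoters. The 250 bases before the start of Cyp3a23-3a1, as RefSeq names the gene, lie at chr12:14398804-14399053, minus strand, and those of Cyp3a2 at chr12:14343858-14344107, minus strand. The repeat, in capitals and here on the opposite strand, stands 144 to 130 bases before the start of the first and 131 to 117 bases before that of the second. A match is a description of the sequence and no evidence of binding in these livers.
Cyp3a23-3a1: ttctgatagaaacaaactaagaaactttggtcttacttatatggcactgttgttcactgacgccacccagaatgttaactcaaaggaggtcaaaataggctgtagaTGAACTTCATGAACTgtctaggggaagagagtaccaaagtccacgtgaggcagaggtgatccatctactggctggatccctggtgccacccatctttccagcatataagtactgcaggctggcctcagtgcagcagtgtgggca
Cyp3a2: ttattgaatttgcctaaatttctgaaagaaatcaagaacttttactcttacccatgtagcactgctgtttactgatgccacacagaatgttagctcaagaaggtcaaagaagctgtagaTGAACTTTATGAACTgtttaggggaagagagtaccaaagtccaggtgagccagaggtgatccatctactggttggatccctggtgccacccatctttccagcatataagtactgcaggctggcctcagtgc

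Of the 9 PXR targets tested, 8 rose and 0 fell, with a median log2 fold change of 2.47, and in all 8 the groups did not overlap. Their summed level was 4438 to 7831 CPM in the vehicle animals and 49323 to 69131 CPM in the ritonavir animals, most of it Cyp3a23/3a1. Ces2a, a carboxylesterase that cleaves ester drugs, was at 46.1, 83.3, 55.8 and 50.1 CPM in the vehicle animals and ran from 922 to 2185 with a median of 1579 CPM in the ritonavir animals, a log2 fold change of 4.74 ± 0.35 (adjusted p = 2.4e-06). Slco1a4, an uptake transporter of bile acids and drugs at the sinusoidal membrane, ran from 194 to 467 CPM in the vehicle animals and from 1477 to 1805 CPM, median 1605 CPM, in the ritonavir animals. Again no treated animal reached down to the vehicle range (2.53 ± 0.24, adjusted p = 9.4e-06). Abcc2, which exports conjugates into bile, rose by 1.63 ± 0.17, and Ugt1a1, which glucuronidates bilirubin, by 1.63 ± 0.12. Abcb1a, the drug efflux pump P-glycoprotein, was measured in the RefSeq table and ran from 23.2 to 43.4 CPM in the vehicle animals and from 74.4 to 154 CPM, median 137 CPM, in the ritonavir animals (2.03 ± 0.23, adjusted p = 4.1e-05). The receptor's own transcript, Nr1i2, fell by 0.53 on the log2 scale (SE 0.08), from 216 ± 25.2 (SD, n = 4) to 149 ± 16.6 CPM (SD, n = 6).

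Targets of the constitutive androstane receptor (CAR), a relative of PXR that shares many of its targets, also rose: 9 of 11 tested were higher and 0 lower, with a median of 1.94. The groups did not overlap in 6 of the 11. Ephx1, microsomal epoxide hydrolase, was at 313, 264, 250.2 and 305 CPM in the vehicle animals and ran from 1558 to 3145 with a median of 2773 CPM in the ritonavir animals (3.18 ± 0.20, adjusted p = 2.7e-07). Abcc3, an exporter of conjugates into blood, ran from 3.55 to 14.6 CPM in the vehicle animals and from 42.4 to 171 CPM, median 123 CPM, in the ritonavir animals (3.82 ± 0.50, adjusted p = 0.00025). Both genes separated the groups completely. Gadd45b, a stress-inducible gene bound by CAR, rose by 3.35 ± 0.38. Alas1, the first and rate-limiting enzyme of heme synthesis, rose by 1.94 ± 0.16, and Por, which passes electrons to all microsomal cytochromes P450, by 0.90 ± 0.27 (0.87, not called, without vehicle animal 2 or without the 2 ritonavir animals of the flow cell that held no vehicle library). Cyp2b2 rose by 2.49 ± 0.23, while Cyp2b1, the other classical CAR target of rat liver, was at 404 ± 90.6 CPM in the vehicle and 293 ± 62.9 CPM in the ritonavir animals and did not pass the test (-0.46 ± 0.18, adjusted p = 0.054). It was called lower in the RefSeq table (-0.93), with RLE size factors or DESeq2 (-0.49 in both), and without ritonavir animal 3 or vehicle animal 3 (-0.56 and -0.58). Cyp2b1 and Cyp2b2 are near-identical, so how reads were divided between them is uncertain. The CAR transcript, Nr1i3, fell by 0.70 on the log2 scale (adjusted p = 0.0045).

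In the wider Cyp2 family 6 of 22 genes were higher and 7 lower, beside 22.7% higher and 19% lower over all genes tested. Cyp2c24 was at 1.88, 1.75, 2.95 and 6.86 CPM in the vehicle animals and ran from 94.6 to 790.4 with a median of 574 CPM in the ritonavir animals, a log2 fold change of 7.34 ± 0.77 (adjusted p = 5.9e-05). It was the third largest increase by the rule for named genes. Cyp2c12, which is female-predominant in rats, ran from 15.4 to 23.5 CPM in the vehicle animals and from 70.3 to 525 CPM, median 229.7 CPM, in the ritonavir animals in these males (3.75 ± 0.51, adjusted p = 0.00033). Cyp2c22 rose by 1.65 ± 0.27. Among the genes that fell, Cyp2e1, which oxidises ethanol and small solvents, went from 8187 ± 1193 to 2896 ± 656 CPM (-1.50 ± 0.17, adjusted p = 3e-05), with no overlap. The vehicle of both groups held ethanol. Cyp1a2, the main constitutive target of the aryl hydrocarbon receptor (AhR), ran from 837 to 2663 CPM in the vehicle animals and from 219.6 to 545 CPM, median 359 CPM, in the ritonavir animals (-2.19 ± 0.33, adjusted p = 0.00049). Of 5 AhR targets tested, 2 rose and 1 fell. Cyp1a1, the most AhR-specific of them, was at 7.25 ± 7.26 and 9.75 ± 8.39 CPM and did not pass the test (0.43 ± 0.96, adjusted p = 0.75).

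Among the conjugating enzymes, 10 of 12 UDP-glucuronosyltransferase (Ugt) genes tested rose and 0 fell, with a median of 1.82. Ugt1a2 was at 1.88, 3.32, 3.32 and 4.21 CPM in the vehicle animals and ran from 61.7 to 253 with a median of 206 CPM in the ritonavir animals (5.90 ± 0.46, adjusted p = 7.9e-06). Ugt1a6 rose by 3.51 ± 0.41, Ugt2a3 by 3.35 ± 0.21 and Ugt2b10 by 2.25 ± 0.26 (0.98 in the RefSeq table). The Ugt1a transcripts share all but their first exon, so the division of reads among them is uncertain. Of 19 glutathione transferases, 11 rose and 2 fell, with a median of 0.74. Among these 19 the alpha-class genes led: Gsta3 rose by 4.52 ± 0.44, Gsta5 by 4.09 ± 0.19 and Gsta2 by 4.07 ± 0.27, with near-identical neighbours among them. The microsomal Mgst3 fell by 1.71 on the log2 scale (adjusted p = 7.5e-06). Of 9 carboxylesterase-list genes, 6 rose and 2 fell, and the 6 that rose were all of the Ces2 group, which also have close copies. Ces2i went from 1.09 ± 0.235 to 32.8 ± 8.22 CPM (4.88 ± 0.27), Ces2j rose by 4.81 ± 0.38, and Ces2c, in the RefSeq table, by 3.73 ± 0.25. Sulfotransferases were split, with 2 of 6 higher and 2 lower. Sult2a6 rose by 2.11 ± 0.21 and Sult1a1, the phenol sulfotransferase, fell by 1.36 on the log2 scale.

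Transporters did not move as a class. Of 9 uptake carriers, 2 rose and 4 fell. The organic anion carriers Slc22a8 (-1.46 ± 0.25) and Slc22a7 (-1.04 ± 0.09) and the carnitine carrier Slc22a5 (-1.41 ± 0.16) fell, each with no overlap of the groups. Of 8 efflux transporters tested, 3 rose and 1, Abcc6, fell (-0.67 ± 0.14). Of those measured only in the RefSeq table, Abcb4 also fell (-0.47 ± 0.12), with no overlap of the groups, and Abcb1a rose (2.03 ± 0.23). Heme genes were mostly raised: 11 of 15 rose and 0 fell, with a median of 0.60. Beside Alas1 the largest increases were in Blvrb, a flavin and biliverdin reductase (2.11 ± 0.10), the heme-binding Pgrmc1 (1.85 ± 0.11) and the cytochrome b5 reductase Cyb5r3 (1.12 ± 0.10).

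**Figure D2:**
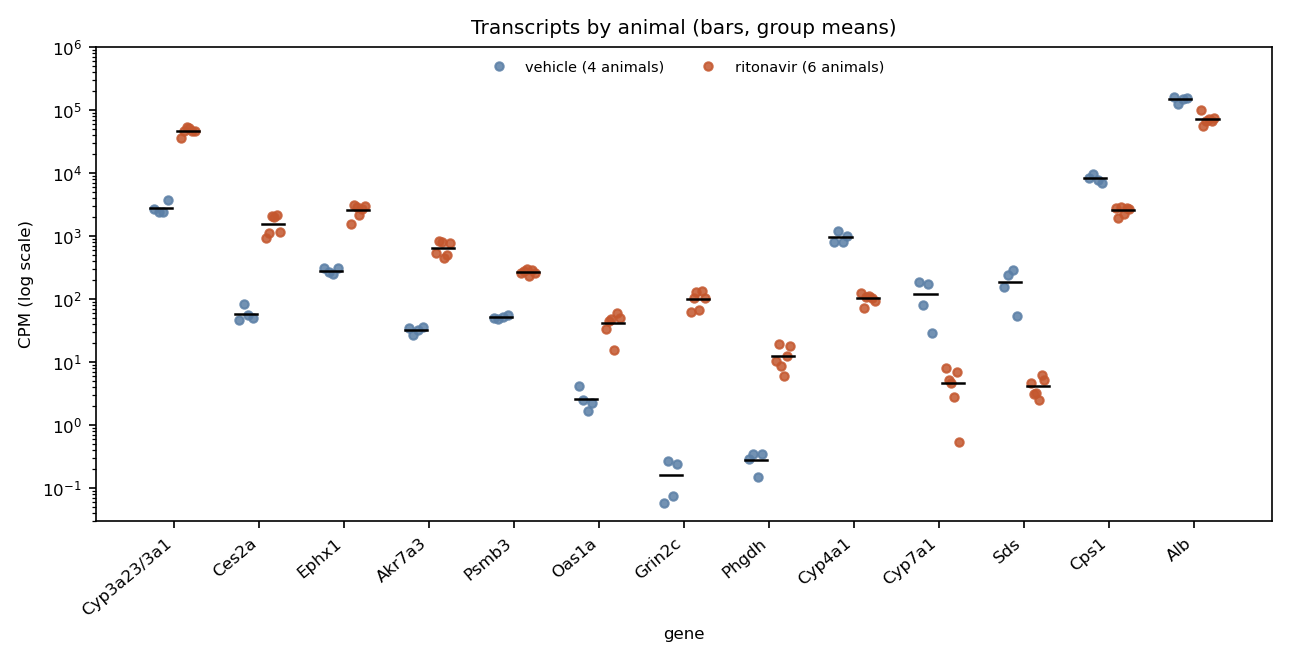
CPM on a log axis of 13 genes described in the text, in 4 vehicle (blue) and 6 ritonavir (orange) animals, with a bar at each group mean. In every gene shown the animals of the groups separate; Cyp3a23/3a1 ends between 36389 and 53252 CPM and Cyp4a1 between 72.3 and 124 CPM.

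NRF2 is the transcription factor of the antioxidant response, held back by KEAP1 until electrophiles modify it. Of 18 NRF2 targets tested, 15 rose and 0 fell, with a median of 1.70. The median over these genes in each animal, as a log2 ratio to the vehicle mean, was -0.18 to 0.13 in the vehicle and 1.55 to 1.86 in the ritonavir animals. Akr7a3, which reduces aflatoxin dialdehyde, was at 35.1, 27.1, 31.8 and 36.5 CPM in the vehicle animals and ran from 444 to 824 with a median of 658 CPM in the ritonavir animals (4.31 ± 0.23, adjusted p = 1.1e-07). Gpx2, a glutathione peroxidase, ran from 0.118 to 1.7 CPM in the vehicle animals and from 11.5 to 108 CPM, median 42.9 CPM, in the ritonavir animals (6.49 ± 1.05, adjusted p = 0.00089). Every treated animal exceeded every vehicle animal in both. Nqo1, the quinone reductase, ran from 8.69 to 36.6 CPM in the vehicle animals and from 51.2 to 242 CPM, median 171 CPM, in the ritonavir animals (2.74 ± 0.49, adjusted p = 0.0017). The enzymes that make and recycle glutathione rose together: Gclc by 1.90 ± 0.20 and Gclm by 2.20 ± 0.17, the subunits of the rate-limiting ligase, and Gsr, glutathione reductase, by 2.57 ± 0.12. In the pentose phosphate pathway, which supplies NADPH, Tkt rose by 2.12 ± 0.20 and Taldo1 by 0.52 ± 0.08, and Pgd, in the RefSeq table, by 1.85 ± 0.10. Srxn1, sulfiredoxin, rose by 3.10 ± 0.21 and Txnrd1, thioredoxin reductase, by 1.43 ± 0.10. The classical target Hmox1, heme oxygenase, ran from 18.7 to 65.5 CPM in the vehicle animals and from 39.3 to 75.6 CPM, median 66.0 CPM, in the ritonavir animals. It did not pass the test (0.87 ± 0.35, adjusted p = 0.073), but was called higher without vehicle animal 4 (1.41), within the flow cell of 2 animals each (1.63), by DESeq2 (0.85) and in 1 fit with the lopinavir and amprenavir studies (0.86). The transcript of NRF2 itself, Nfe2l2, was at 82.9 ± 9.87 and 80.4 ± 6.96 CPM and did not pass the test. Keap1 rose by 1.06 ± 0.10. Several of these genes are also targets of PXR or CAR, and the list counts do not separate the receptors.

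All 33 proteasome genes tested rose, and in all 33 the groups did not overlap. These are the subunits of the catalytic core and of the regulatory cap, with the assembly factor Pomp and the cap's ubiquitin receptor Adrm1. Their median log2 fold change was 1.46. Summed, they made up 2521 to 2667 CPM in the vehicle animals and 6691 to 7326 CPM in the ritonavir animals. By animal, the median log2 ratio to the vehicle mean was -0.06 to 0.02 in the vehicle and 1.42 to 1.56 in the ritonavir group, so the animals within each group lay close together. All 33 also rose within the flow cell that held 2 animals of each group, with RIN as a covariate, and without any 1 animal, and 24 rose by more than 1 on the log2 scale in edgeR's test against that minimum.

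Among the core subunits, Psmb3, a structural beta subunit, was at 49.5, 48.8, 52.8 and 55.6 CPM in the vehicle animals and ran from 236 to 296 with a median of 269.9 CPM in the ritonavir animals. The log2 fold change of 2.38 ± 0.09 (adjusted p = 1.9e-08) was the largest of the list. Psmb5, the subunit with the chymotrypsin-like activity, was at 52.1, 58.3, 64.0 and 55.7 CPM in the vehicle animals and ran from 157 to 195 with a median of 180.5 CPM after ritonavir (1.64 ± 0.09, adjusted p = 7.5e-08). The other catalytic subunits of the standard core rose to a similar extent, Psmb6 by 1.66 ± 0.08 and Psmb7 by 1.44 ± 0.08. The alpha subunits that gate the core ranged from 0.85 to 1.88, led by Psma2 (1.88 ± 0.08), with the row named Psma3l, matched to Psma3 by an older symbol, at the lower end (0.85 ± 0.07). In the cap, the ATPase Psmc4, which unfolds substrates, ran from 56.3 to 65.2 CPM in the vehicle animals and from 245 to 289.8 CPM, median 268 CPM, in the ritonavir animals (2.11 ± 0.08, adjusted p = 1.9e-08). Psmd14, which removes ubiquitin chains at the cap, ran from 30.0 to 39.2 CPM in the vehicle animals and from 119 to 136 CPM, median 129 CPM, in the ritonavir animals (1.98 ± 0.09, adjusted p = 2.4e-08). The smallest increases in the cap were Psmd7 (0.90 ± 0.07) and Psmd11 (1.04 ± 0.07). Proteasome genes have processed copies elsewhere in the genome, which can take reads from them. Nfe2l1, the factor known to raise proteasome genes when proteasome activity is low, was at 71.8 ± 11.5 and 85.8 ± 11.3 CPM and did not pass the test (0.26 ± 0.12, adjusted p = 0.11), except without vehicle animal 2 (0.35) and in 1 fit with the lopinavir and amprenavir studies (0.25). A shortened antioxidant element, TGACNNNGC on either strand, was in the promoters of 7 of 29 proteasome genes (24.1%), of 5 of 18 NRF2 targets (27.8%) and of 12.2% of all promoters of that length. This motif was chosen after the values were seen.

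**Figure D3:**
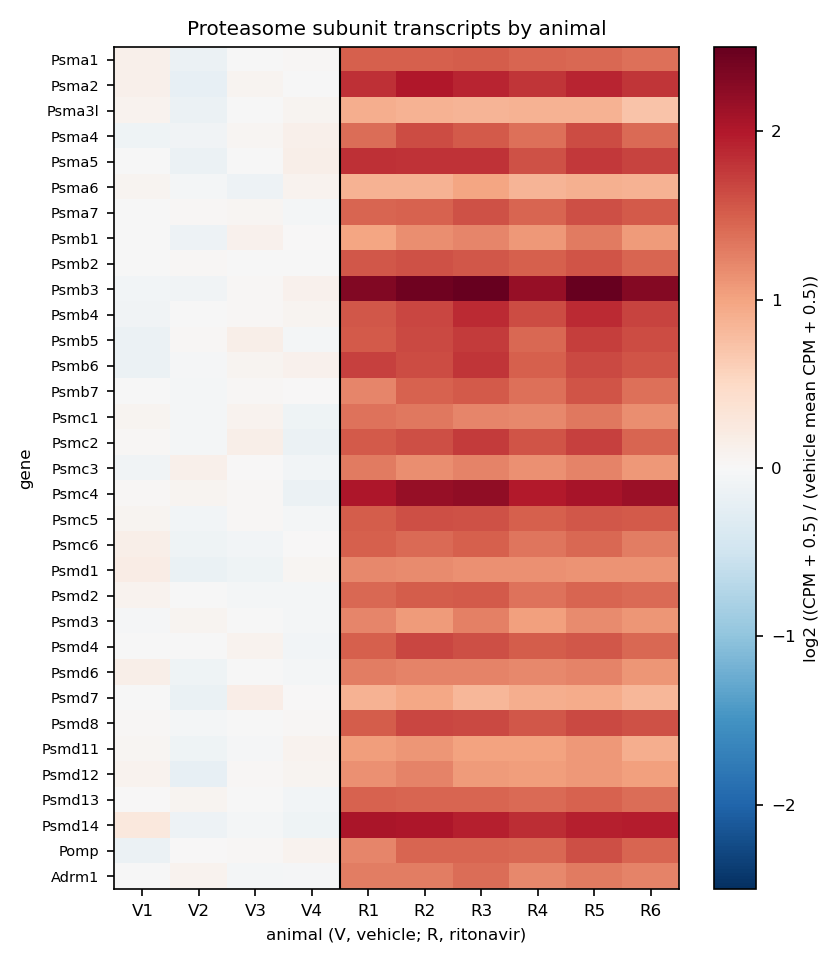
Log2 ratio of each animal's CPM to the vehicle mean, with 0.5 CPM added to both, for the 33 proteasome genes (rows) in 4 vehicle (V) and 6 ritonavir (R) animals. The 6 ritonavir columns are red in every row, with medians by animal from 1.42 to 1.56.

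Cytosolic heat shock genes rose in 11 of 13 cases, with 0 lower and with a median of 0.95. Hspb1, a small heat shock protein, ran from 7.07 to 34.2 CPM in the vehicle animals and from 52.6 to 124 CPM, median 94.2 CPM, in the ritonavir animals (2.17 ± 0.45, adjusted p = 0.0038). The constitutive chaperone Hspa8 rose by 1.04 ± 0.29 (0.40, not called, within the flow cell of 2 animals each) and the co-chaperone Bag3 by 1.08 ± 0.20. The stress-inducible Hspa1a, at 1.83 ± 1.28 and 5.05 ± 4.01 CPM, did not pass the test (1.50 ± 0.98, adjusted p = 0.25), but was called higher within the flow cell of 2 animals each (1.51). In the endoplasmic reticulum, 9 of 20 chaperone and quality control genes rose and 2 fell, with a median of 0.43. Pdia3 rose by 0.84 ± 0.12, Calr by 0.74 ± 0.14 and P4hb by 0.70 ± 0.11, all of them folding enzymes or chaperones of secreted proteins. The central chaperone Hspa5 (BiP) did not pass the test (0.45 ± 0.18, adjusted p = 0.067). It was called higher with flow cell as a covariate (0.43), within the flow cell of 2 animals each (0.48), in the RefSeq table (0.48), by DESeq2 (0.42), in 1 fit with the lopinavir and amprenavir studies (0.44), and without ritonavir animal 1 or vehicle animal 3 (0.51 and 0.59). Edem1, which marks misfolded glycoproteins for degradation, fell by 1.44 on the log2 scale (adjusted p = 0.00033), from 338 ± 106 to 125 ± 27.0 CPM. Among lysosomal genes 6 of 18 rose and 3 fell, 1 to 3 when each animal was left out. Sqstm1 (p62), which links ubiquitin-tagged cargo to autophagy, ran from 313 to 391 CPM in the vehicle animals and from 1486 to 1840.4 CPM, median 1652 CPM, in the ritonavir animals (2.27 ± 0.10, adjusted p = 2.4e-08), and the protease Ctsd rose by 1.44 ± 0.09.

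ATF4 is the transcription factor of the integrated stress response, which is switched on by amino acid shortage or unfolded proteins. Its targets split: 12 of 23 rose and 3 fell, with a median of 0.78. The largest of the increases given here was in 1 gene of serine synthesis. Phgdh, its first enzyme, was at 0.294, 0.343, 0.148 and 0.343 CPM in the vehicle animals and ran from 5.92 to 19.5 with a median of 11.5 CPM in the ritonavir animals (5.39 ± 0.46, adjusted p = 6.8e-06). Psat1, the next enzyme, rose by 2.39 ± 0.42 and Psph, the last, by 0.78 ± 0.17. Atf3 rose by 2.90 ± 0.37, asparagine synthetase (Asns) by 1.54 ± 0.32 and the amino acid carriers Slc7a5 and Slc3a2 by 2.02 ± 0.56 and 1.47 ± 0.14. Against these, Chac1, which degrades glutathione, fell by 2.07 and Sesn2 by 1.20 on the log2 scale (adjusted p = 0.00076 and 0.00015). Ddit3 (CHOP), the target tied to cell death, was at 5.75 ± 0.741 and 5.79 ± 1.02 CPM and did not pass the test.

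Genes induced by interferon made up a further group that rose. Of 28 tested, 24 rose and 0 fell, with a median of 1.68, and in 17 the groups did not overlap. Oas1a, an antiviral sensor of double-stranded RNA, was at 4.12, 2.51, 1.7 and 2.2 CPM in the vehicle animals and ran from 15.4 to 59.2 with a median of 46.0 CPM in the ritonavir animals (3.98 ± 0.42, adjusted p = 5.4e-05). Mx2, an antiviral GTPase, ran from 6.01 to 10.3 CPM in the vehicle animals and from 16.6 to 131 CPM, median 63.8 CPM, in the ritonavir animals (2.93 ± 0.50, adjusted p = 0.0012). Irf7, the factor that amplifies the interferon response, ran from 7.09 to 12.2 CPM in the vehicle animals and from 20.7 to 87.6 CPM, median 64.3 CPM, in the ritonavir animals (2.57 ± 0.37, adjusted p = 0.00045). In these 3 genes every ritonavir animal lay above every vehicle animal, and the lowest of the 6 was the same animal in each. Oasl rose by 3.91 ± 0.53, Ifit3 by 2.85 ± 0.47, Mx1 by 2.82 ± 0.43, Usp18 by 2.65 ± 0.56 and Isg15, a ubiquitin-like modifier, by 2.41 ± 0.38.

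The size of this increase varied between animals. The median over the 28 genes, as a log2 ratio to the vehicle mean, was 0.55 in ritonavir animal 4, which had the lowest RNA integrity number (7.9), and 1.31 to 1.99 in the other 5, against -0.35 to 0.14 in the vehicle animals. With RIN or flow cell as a covariate the same 24 genes rose. Within the flow cell of 2 animals each 24 rose, 23 of them among those 24, and 1 fell. From 21 to 25 rose when each animal was left out. Ifit1 did not pass the test (2.10 ± 0.96, adjusted p = 0.11), with values that ran from 1.33 to 5.18 CPM in the vehicle animals and from 0 to 24.4 CPM, median 14.6 CPM, in the ritonavir animals. The value of 0 was in ritonavir animal 2, without which Ifit1 rose by 2.36 (adjusted p = 0.013), as it did by 2.17 within the flow cell of 2 animals each. Stat2 (-0.19 ± 0.14) and Ifi47 (0.33 ± 0.23) also did not pass, Stat2 except without ritonavir animal 1 (-0.33) and within the flow cell of 2 animals each (-0.42). In the RefSeq table Oas1b rose by 2.10 ± 0.62. The receptors and sensors upstream did not rise as a class, with 1 of 14 higher and 4 lower (0 to 2 and 3 to 5 when each animal was left out, and 2 lower within the flow cell of 2 animals each). Tlr3, a sensor of double-stranded RNA, rose by 0.35 ± 0.13, a call lost in most alternatives, among them DESeq2 (0.32), flow cell as a covariate (0.39), within the flow cell of 2 animals each (0.22) and without any one of ritonavir animals 1, 2, 3 and 5 and vehicle animals 1 and 3 (0.23 to 0.35), and the adaptors Mavs (-0.75 ± 0.14) and Myd88 (-0.47 ± 0.09) fell.

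Some promoters are printed to show the interferon element at the start of genes that rose. The element GAAANNGAAA, on either strand, was in 13 of the 20 listed genes with a promoter in the RefSeq table (65%) and in 3.77% of all 27457 promoters. Its longer form GAAANNGAAANNGAAA was in 3 of the 20 (15%), Oas1a, Oas1b and Bst2, and in 27 of all promoters (0.0983%). The shorter form lies within the longer. The 250 bases before the start are at chr12:41330216-41330465, plus strand for Oas1a, at chr12:41395853-41396102, minus strand for Oas1b and at chr16:18254968-18255217, minus strand for Bst2, all in GRCr8 from RefSeq. Capitals mark the longer form, which stands 41 to 26, 59 to 44 and 131 to 116 bases before the start. The match has the same letters, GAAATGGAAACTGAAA, in both Oas1 promoters. Bst2, which tethers budding viruses to the cell surface, rose by 0.81 ± 0.18, less than Oas1a.
Oas1a: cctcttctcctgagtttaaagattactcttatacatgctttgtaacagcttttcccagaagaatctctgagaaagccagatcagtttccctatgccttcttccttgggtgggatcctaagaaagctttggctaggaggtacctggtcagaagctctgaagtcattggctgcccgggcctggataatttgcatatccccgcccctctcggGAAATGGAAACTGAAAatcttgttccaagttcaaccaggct
Oas1b: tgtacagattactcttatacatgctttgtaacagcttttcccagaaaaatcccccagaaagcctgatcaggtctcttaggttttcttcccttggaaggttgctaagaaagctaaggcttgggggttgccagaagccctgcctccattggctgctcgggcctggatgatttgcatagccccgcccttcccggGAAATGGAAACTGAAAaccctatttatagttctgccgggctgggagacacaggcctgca
Bst2: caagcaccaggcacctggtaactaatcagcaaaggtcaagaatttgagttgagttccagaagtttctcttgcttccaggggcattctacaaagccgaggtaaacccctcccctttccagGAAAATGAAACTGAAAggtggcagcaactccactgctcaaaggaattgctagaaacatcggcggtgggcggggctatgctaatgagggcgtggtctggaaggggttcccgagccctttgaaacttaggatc

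Genes of MHC class I presentation, which loads peptides cut by the proteasome, rose in 10 of 11 cases, with 0 lower and a median of 1.03. The catalytic subunits of the immunoproteasome rose, Psmb8 by 1.03 ± 0.25, Psmb9 by 1.35 ± 0.16 and Psmb10 by 1.45 ± 0.17, and so did its activator Psme1, the peptide transporter Tap1 (0.74 ± 0.16) and the loading factor Tapbp (1.22 ± 0.10). B2m, the class I light chain, did not pass (0.22 ± 0.12, adjusted p = 0.19). Class II genes, which mark antigen-presenting cells, had 0 of 8 higher and 3 lower, 0 to 5 lower when each animal was left out, and in none of the 8 did the groups separate. Vehicle animal 1 was the highest in most of them. The invariant chain Cd74 was at 232, 50.2, 55.7 and 78.3 CPM in the vehicle animals and ran from 34.8 to 71.7 with a median of 44.8 CPM in the ritonavir animals (-1.07 ± 0.43, adjusted p = 0.073; called without vehicle animal 2, -1.30, by DESeq2, -1.09, and in 1 fit with the lopinavir and amprenavir studies, -1.07).

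Markers of the immune cells that could carry an interferon response were measured in the same livers. In edgeR's test 0 of 12 Kupffer cell and macrophage markers changed, with 0 at an unadjusted p under 0.05 and 0 by DESeq2, and with summed levels of 606 to 884 CPM in the vehicle and 595 to 838 CPM in the ritonavir animals. Clec4f, the most specific Kupffer cell marker in rodents, was at 139 ± 34.6 and 137 ± 17.4 CPM. All 4 monocyte markers tested rose but at very low levels, summing to 2.59 to 3.94 CPM in the vehicle and 3.82 to 8.76 CPM in the ritonavir animals. Of them 1 to 3 rose when each animal was left out. With flow cell as a covariate 2 rose, and 1 within the flow cell of 2 animals each. Without the 2 ritonavir animals of the flow cell that held no vehicle library 0 rose. The other listed monocyte marker, Ccr2, measured in the RefSeq table, did not pass the test (-0.10 ± 0.38, adjusted p = 0.85). Of 7 T and NK cell markers 2 fell, 0 to 2 when each animal was left out, and the 3 B and plasma cell markers and the 1 neutrophil marker of 9 that passed the count filter gave no call by edgeR or DESeq2. Dendritic cell markers, 3 of 5 tested, gave 0 higher and 1 lower, with a median of -0.58. The count lower was 0 to 1 when each animal was left out and 0 within the flow cell of 2 animals each. In bulk tissue, fewer cells of a type and less RNA per cell cannot be told apart. The part of these cells in the interferon and class I values was not tested.

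**Figure D4:**
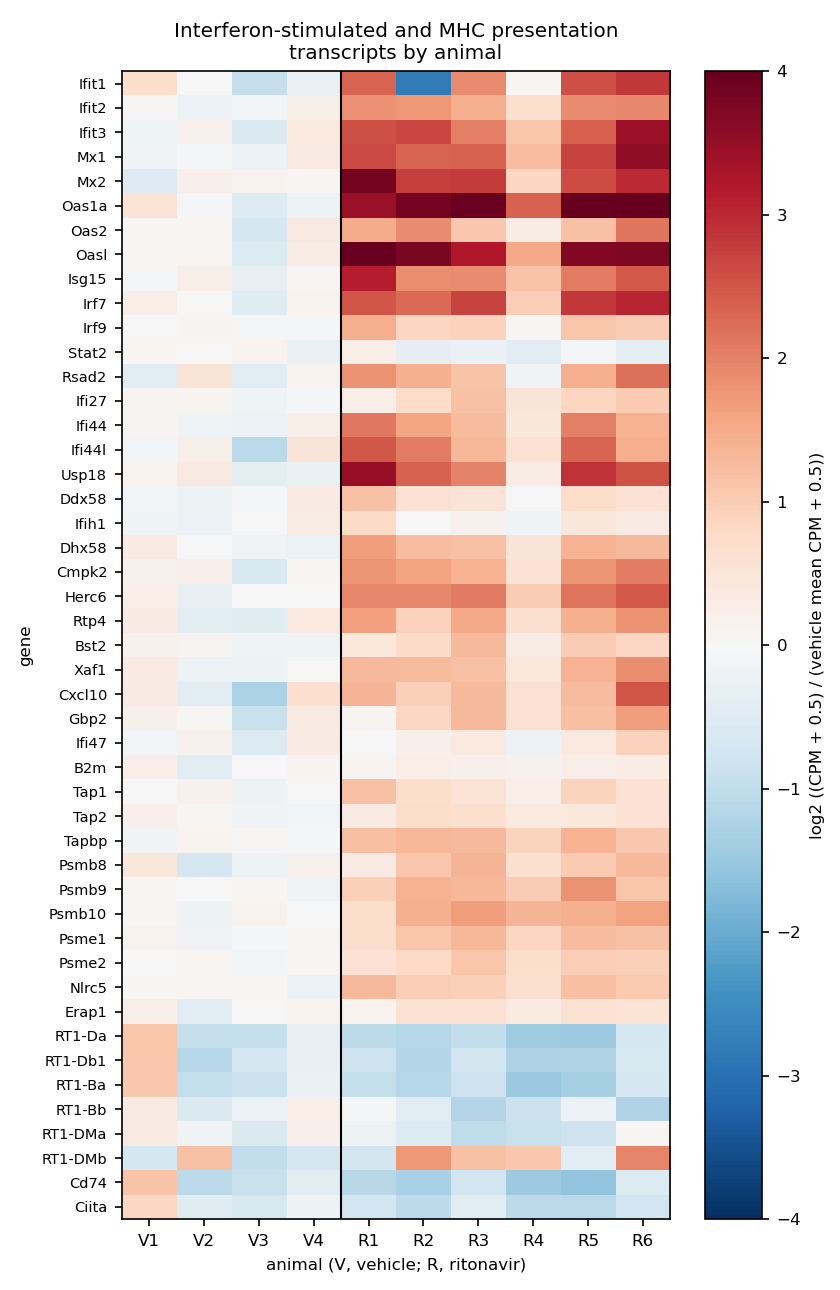
Log2 ratio of each animal's CPM to the vehicle mean, with 0.5 CPM added to both, for interferon-stimulated genes (upper rows, Ifit1 to Ifi47), MHC class I genes (B2m to Erap1) and MHC class II genes (lower rows, RT1-Da to Ciita). Ritonavir animal 4 is paler than the other 5 over the interferon genes, and vehicle animal 1 stands out in the class II genes.

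Of 26 genes of the urea cycle and amino acid breakdown, 21 fell and 1 rose, with a median of -0.93. Their summed level went from 23229.5 to 31723 CPM in the vehicle to 9478 to 13675 CPM in the ritonavir animals. Sds, serine dehydratase, which feeds serine into glucose production, had the largest decrease of all genes named here. It was at 157, 244, 288 and 54.0 CPM in the vehicle animals and ran from 2.5 to 6.32 with a median of 3.94 CPM in the ritonavir animals (-5.48 ± 0.47, adjusted p = 1.5e-05), so the lowest vehicle animal was still far above the highest treated one. Got1, cytosolic aspartate aminotransferase, ran from 159 to 851 CPM in the vehicle animals and from 45.2 to 57.3 CPM, median 50.7 CPM, in the ritonavir animals (-3.45 ± 0.36, adjusted p = 5.5e-05). Of the urea cycle proper, Cps1, its first and rate-limiting enzyme, was at 8237, 9799, 7871 and 6839 CPM in the vehicle animals and ran from 1958 to 2936 with a median of 2719.7 CPM after ritonavir (-1.68 ± 0.14, adjusted p = 2.5e-06). Ass1 fell by 1.84 and Asl by 1.76 on the log2 scale, Otc, which stands between Cps1 and these in the cycle, by 0.39, and Arg1 did not pass the test (-0.21 ± 0.14, adjusted p = 0.24). Oat, ornithine aminotransferase, fell by 2.03 and Hal, histidine ammonia-lyase, by 1.39. The single increase was Bckdha (0.50 ± 0.12), a subunit of the branched-chain ketoacid dehydrogenase.

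Sulfur amino acid genes fell in 10 of 12 cases, with 0 higher and a median of -1.22. Gnmt, which disposes of surplus methyl groups, ran from 430.0 to 825 CPM in the vehicle animals and from 50.9 to 149 CPM, median 102 CPM, in the ritonavir animals (-2.68 ± 0.29, adjusted p = 4.8e-05). Mat1a, the hepatocyte enzyme that makes S-adenosylmethionine, went from 4842 ± 943 to 2128 ± 370.3 CPM (-1.19 ± 0.16, adjusted p = 0.00013). Cth, which makes cysteine, fell by 1.78, Bhmt, which remethylates homocysteine, by 1.70 and Cdo1, which oxidises cysteine, by 1.30 on the log2 scale. Mat2a, the form of the methionine enzyme found outside hepatocytes, did not pass the test (0.22 ± 0.10, adjusted p = 0.12), but was called higher in the RefSeq table (0.41).

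Genes of glucose metabolism fell in 10 of 18 cases and rose in 1, with a median of -0.42. G6pc and Pck1, the committed enzymes of glucose release and gluconeogenesis, fell by 1.06 and 0.97 on the log2 scale (adjusted p = 0.0069 and 0.0015), with overlapping groups. Ppargc1a, a coactivator of fasting genes, fell by 1.33 and the glycogen-targeting subunits Ppp1r3c and Ppp1r3b by 1.38 and 1.16, each with no overlap. The increase was Pklr, liver pyruvate kinase (0.97 ± 0.22). Of 12 genes of the growth hormone and IGF axis, 5 fell and 0 rose, with a median of -0.99, although 3 fell when ritonavir animal 3 was left out or no count filter was used. Igf1 ran from 159 to 284 CPM in the vehicle animals and from 57.5 to 119 CPM, median 100.3 CPM, in the ritonavir animals (-1.12 ± 0.23, adjusted p = 0.0033), and the growth hormone receptor Ghr fell by 0.97.

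PPARalpha is the nuclear receptor that raises fatty acid oxidation in the fasted liver. Of 29 of its targets tested, 22 fell and 0 rose, with a median of -0.88, and in 21 of the 29 the groups did not overlap. Cyp4a1, a fatty acid omega-hydroxylase and the standard marker of PPARalpha activation in rats, was at 803, 1182, 815 and 1018 CPM in the vehicle animals and ran from 72.3 to 124 with a median of 106 CPM in the ritonavir animals (-3.22 ± 0.16, adjusted p = 3.3e-08). Acot1, an acyl-CoA thioesterase, ran from 1.65 to 13.3 CPM in the vehicle animals and from 0.0408 to 1.17 CPM, median 0.463 CPM, in the ritonavir animals (-3.79 ± 0.70, adjusted p = 0.0018). Ehhadh, the peroxisomal bifunctional enzyme, ran from 1145 to 2087 CPM in the vehicle animals and from 232 to 605 CPM, median 347 CPM, in the ritonavir animals (-2.06 ± 0.26, adjusted p = 0.00013). In all 3 the groups did not overlap, and these were the largest decreases among the enzymes of the list. Cyp4a2 and Cyp4a3, which are near-identical, fell by 1.61 and 1.42 on the log2 scale, the call of Cyp4a2 being lost in the RefSeq table (-1.04) and without the 2 ritonavir animals of the flow cell that held no vehicle library (-1.44). Angptl4, a secreted lipase inhibitor, fell by 2.13. The mitochondrial gatekeeper Cpt1a fell by 0.88. Not all targets fell: Fabp1 (0.11 ± 0.17) and Acadvl (0.16 ± 0.08) did not pass, and Ppara itself was at 38.7 ± 12.1 and 41.9 ± 8.27 CPM (0.11 ± 0.21, adjusted p = 0.69).

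Bile acid genes were lower in 7 of 14 cases and higher in 2, with a median of -0.55. Cyp7a1, the rate-limiting enzyme of the classical pathway, was at 189, 80.5, 174 and 29.1 CPM in the vehicle animals and ran from 0.53 to 7.97 with a median of 4.94 CPM in the ritonavir animals (-4.65 ± 0.66, adjusted p = 0.00039). The vehicle animals differed widely among themselves, yet the lowest of them lay above the highest treated animal. Cyp8b1, the 12-alpha-hydroxylase that makes cholic acid, was at 992, 1402, 922 and 316 CPM in the vehicle animals and ran from 15.1 to 297 with a median of 25.6 CPM after ritonavir (-3.73 ± 0.95, adjusted p = 0.011). Cyp27a1, the first enzyme of the alternative pathway, fell by 0.60 and the conjugating ligase Slc27a5 by 1.27 on the log2 scale, the latter call lost without ritonavir animal 3 or any vehicle animal (-1.30 to -1.21), without a count filter (-1.26) or within the flow cell of 2 animals each (-1.05). The reductase Akr1d1 rose by 0.94 ± 0.21. Of listed genes measured only in the RefSeq table, Abcb4 fell (-0.47 ± 0.12) and Klb rose (0.45 ± 0.14). The transporters of bile acids, the exporter Abcb11 (0.37 ± 0.15) and the uptake carrier Slc10a1 (-0.34 ± 0.16), and Nr0b2 (SHP), the repressor induced by bile acids (-0.50 ± 0.35), did not pass the test. Abcb11 was called higher without vehicle animal 4 (0.59), within the flow cell of 2 animals each (0.56), in the RefSeq table (0.40), by DESeq2 (0.35) and in 1 fit with the lopinavir and amprenavir studies (0.37). Slc10a1 was called lower with flow cell as a covariate (-0.43) and in 1 fit with the lopinavir and amprenavir studies (-0.35).

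Cholesterol synthesis genes, which SREBP2 raises when sterols are low, fell in 8 of 25 cases and rose in 2, with a median of -0.27, and 13 fell when ritonavir animal 1 was left out. Insig1, the sterol-sensing brake of the pathway and one of its targets, ran from 106 to 299.9 CPM in the vehicle animals and from 31.9 to 96.6 CPM, median 60.6 CPM, in the ritonavir animals (-1.80 ± 0.32, adjusted p = 0.0015). The reductase Tm7sf2 fell by 1.86 and Hsd17b7 by 1.56 on the log2 scale, whereas Dhcr7, the last enzyme, rose by 0.73 ± 0.14. The sterol element TCACNCCAC was in 0 of 17 promoters of the list and in 1.13% of all. Of 11 sterol efflux and LXR genes 3 rose and 6 fell, with a median of -0.33, and 2 fell within the flow cell of 2 animals each. Among those that rose, the paired exporters Abcg5 and Abcg8 rose by 1.29 ± 0.26 and 1.53 ± 0.36. In fatty acid synthesis 3 of 17 rose and 4 fell, and 7 fell without ritonavir animal 1. Me1, the malic enzyme that supplies NADPH, rose by 2.05 ± 0.20 and Acacb by 1.31 ± 0.11. Cidea, a lipid droplet protein of steatotic liver, ran from 2.22 to 10.9 CPM in the vehicle animals and from 15.9 to 31.2 CPM, median 23.2 CPM, in the ritonavir animals (2.21 ± 0.42, adjusted p = 0.0022), the only increase among 12 lipid droplet and lipoprotein assembly genes.

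Albumin, Alb, the main secreted protein of hepatocytes, was at 162414, 126221, 147150.0 and 153865 CPM in the vehicle animals and ran from 55626 to 98346 with a median of 69600.2 CPM in the ritonavir animals, with no overlap (-1.03 ± 0.16, adjusted p = 0.00031). Of 11 hepatocyte markers tested 9 fell and 1, transferrin (Tf), rose (0.44 ± 0.14, and not called without vehicle animal 2 or 3, 0.38 and 0.41, with flow cell as a covariate, 0.36, or within the flow cell of 2 animals each, 0.46), while the hepatocyte transcription factor Hnf4a was at 601 ± 70.1 and 587 ± 54.1 CPM and did not pass the test. Coagulation genes fell in 11 of 19 cases with 0 higher and a median of -0.37, among them Serpind1 (heparin cofactor II, -1.33 ± 0.13) and F10 (-0.79 ± 0.08). Complement genes fell in 6 of 19 and rose in 0, with the groups overlapping in all 19. Apolipoproteins fell in 6 of 12, led by Apoc3 (-1.08 ± 0.20), and Apoa1, the main protein of HDL, rose (0.68 ± 0.15). Most acute phase genes, 13 of 18, gave no call, and 3 were higher and 2 lower, with 1 to 3 higher and 2 to 5 lower when each animal was left out. Lcn2 ran from 1.7 to 3.09 CPM in the vehicle animals and from 1.24 to 48.0 CPM, median 6.38 CPM, in the ritonavir animals (2.87 ± 1.00, adjusted p = 0.043), a call lost without ritonavir animal 4 or 6 or any vehicle animal (2.23 to 3.07) and with RIN or flow cell as a covariate (2.63 and 1.92), and Lbp, which binds bacterial lipopolysaccharide, rose by 1.11 ± 0.17.

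Most genes marking either end of the liver lobule fell. Of 8 pericentral genes 7 fell and 1 rose, and of 9 periportal genes 7 fell and 0 rose, with medians of -1.05 and -1.29. Glul, glutamine synthetase of the last ring of hepatocytes around the central vein, fell by 1.04 and Axin2, a Wnt target of the same cells, by 1.06, while the ammonium transporter Rhbg rose by 1.28 ± 0.45, a call lost without any one of ritonavir animals 2, 3, 5 and 6 and vehicle animals 1, 3 and 4 (1.03 to 1.43) and with RIN or flow cell as a covariate (1.29 and 1.46). On the periportal side Gls2 fell by 1.29 and Hsd17b13 by 1.81. Several of these genes are also in the amino acid list.

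Cdkn1a (p21), the p53 target that stops the cell cycle, ran from 8.19 to 50.2 CPM in the vehicle animals and from 2.17 to 7.43 CPM, median 3.51 CPM, in the ritonavir animals (-2.60 ± 0.49, adjusted p = 0.0022). Mdm2, another p53 target and the ligase that degrades p53, moved the other way and ran from 14.9 to 22.2 CPM in the vehicle animals and from 43.8 to 109.5 CPM, median 82.8 CPM, in the ritonavir animals (2.12 ± 0.24, adjusted p = 4.8e-05). Of 12 p53 targets 2 rose and 5 fell. Cell cycle genes rose in 11 of 31 cases and fell in 0, with a median of 0.84, at low levels: summed they were at 74.8 to 105 CPM in the vehicle and 123 to 281 CPM in the ritonavir animals. Replication genes led, Mcm6 by 2.40 ± 0.38 (1.54 within the flow cell of 2 animals each), Mcm5 by 2.10 ± 0.45 and Tk1 by 2.26 ± 0.24, whereas the proliferation marker Mki67 did not pass (0.96 ± 0.47, adjusted p = 0.13), except without ritonavir animal 4 (1.14) and in 1 fit with the lopinavir and amprenavir studies (0.95). With flow cell as a covariate 7 cell cycle genes rose, and 3 within the flow cell of 2 animals each. Of 17 clock genes 1 rose and 7 fell, and 4 fell without the 2 ritonavir animals of the flow cell that held no vehicle library. Npas2 (-1.83 ± 0.32) and Cry1 (-1.21 ± 0.16) fell with no overlap. Of 11 immediate early genes 0 passed edgeR's test, with 1 at an unadjusted p under 0.05 and 0 called by DESeq2.

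Genes that differ between the sexes in rat liver did not shift as one group. Of 7 male-predominant genes tested 2 rose and 2 fell, and of 4 female-predominant genes 2 rose and 0 fell, which were Cyp2c12 and the repressor Cux2 (2.06 ± 0.74, adjusted p = 0.048). The Cux2 call was lost without any one animal other than ritonavir animal 1 and vehicle animal 2 (1.74 to 2.17), and with RLE size factors, with RIN as a covariate or in the RefSeq table (2.03, 2.03 and 1.98). Listed genes measured only in the RefSeq table add to these counts. There the female-predominant Sult2a1 rose by 0.90 ± 0.21. Among male-predominant genes Mup5 fell by 1.67 on the log2 scale, Cyp3a2 rose by 0.97 and Cyp2a2 did not pass the test (-0.18 ± 0.15). Cyp3a2 and Cyp3a18, which both rose, are also in the list of PXR targets. Cyp2c11, the main male-specific P450, was at 978, 823, 1472 and 1329 CPM in the vehicle animals and ran from 86.4 to 1284 with a median of 271 CPM in the ritonavir animals. The groups overlapped and it did not pass the test (-1.43 ± 0.72, adjusted p = 0.14), but fell by 2.19 on the log2 scale without ritonavir animal 1 (adjusted p = 0.014), by 2.82 within the flow cell of 2 animals each and by 1.42 in 1 fit with the lopinavir and amprenavir studies. Of 7 thyroid hormone-responsive genes 2 rose and 3 fell, among them Dio1, the deiodinase that activates the hormone (-0.77 ± 0.13). Of 10 glucocorticoid-responsive genes 3 fell and 0 rose, with Tat, tyrosine aminotransferase, at -1.45 ± 0.28 and Sgk1 at -1.27 ± 0.24. Of 12 stress-induced secreted factors 1, Gdf15, rose (0.98 ± 0.31, adjusted p = 0.023) and 4 fell, 2 within the flow cell of 2 animals each. The call of Gdf15 was lost without vehicle animal 2 or 3 (0.76 and 0.82), with flow cell as a covariate (1.08), within the flow cell of 2 animals each (1.08) and in 1 fit with the lopinavir and amprenavir studies (0.97). Of 17 nuclear receptors and sensors 2 rose and 5 fell, 3 within that flow cell. Of 13 ribosome biogenesis genes 2 rose and 1 fell, with 1 to 4 higher when each animal was left out.

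Markers of non-parenchymal cells were lower in part. Endothelial markers fell in 8 of 13 cases with 0 higher and a median of -0.52, among them the receptor Kdr (-1.02 ± 0.15) and the scavenger receptors Stab1 (-0.88 ± 0.16) and Stab2 (-0.77 ± 0.21; -0.72, not called, with flow cell as a covariate), and the count was 5 with flow cell as a covariate and 3 within the flow cell of 2 animals each. Of 13 stellate cell and fibroblast markers 4 fell, 4 to 6 when each animal was left out and 7 in 1 fit with the lopinavir and amprenavir studies, including Lrat, which stores retinol (-1.02 ± 0.15). Erythroid transcripts, a measure of blood in the sample, fell in 3 of 4 cases: the globin Hba-a2 ran from 169 to 274 CPM in the vehicle animals and from 32.6 to 142 CPM, median 71.7 CPM, in the ritonavir animals (-1.65 ± 0.37, adjusted p = 0.0055). The part of blood content and cell makeup in the other values was not tested.

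By the rule for named genes, the 12 largest increases included genes outside the lists above. Grin2c, a subunit of the NMDA glutamate receptor, was at 0.0589, 0.267, 0.0739 and 0.245 CPM in the vehicle animals and ran from 63.4 to 135 with a median of 103 CPM in the ritonavir animals. The log2 fold change of 9.07 ± 0.43 (adjusted p = 1.3e-07) was the largest by the rule. Nol3, an inhibitor of apoptosis, ran from 0.148 to 0.533 CPM in the vehicle animals and from 24.9 to 64.4 CPM, median 44.2 CPM, in the ritonavir animals (7.04 ± 0.42, adjusted p = 6.4e-07). Slc16a5, of the monocarboxylate transporter family, had 1 count in the 4 vehicle animals together and 837 in the 6 ritonavir animals, a ratio of rates of 549.8 with an exact 95% interval of 98.4 to 21740.0 that covers counting error only. Gstm3l, a glutathione transferase of the mu class, had 3 and 919 counts, a ratio of 201.2 (68.6 to 977.5). Ttc39a rose by 5.37 ± 0.45, Rnf207 by 4.89 ± 0.28 and Map1a, which binds microtubules, by 4.88 ± 0.63. The rest of the 12 were Cyp2c24, Gpx2, Ugt1a2, Phgdh and Ces2i.

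Among the 12 largest decreases, Sds, Cyp7a1, Acot1, Cyp8b1, Got1 and Cyp4a1 have been described. Krt23, a keratin, ran from 4.36 to 11.2 CPM in the vehicle animals and from 0.152 to 0.664 CPM, median 0.426 CPM, in the ritonavir animals (adjusted p = 9.5e-06). Mcm10, a DNA replication factor, ran from 10.2 to 69.0 CPM in the vehicle animals and from 2.76 to 6.97 CPM, median 2.85 CPM, in the ritonavir animals (-3.49 ± 0.51, adjusted p = 0.00049), while Mcm5 and Mcm6 rose. Acsm3, which activates medium-chain fatty acids, fell by 3.07 and Apcdd1, an inhibitor of Wnt signalling, by 3.11 on the log2 scale. Fam198a fell by 3.97 and Mmd2 by 3.88. In all of these the groups did not overlap, as the rule required.

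The series holds 2 further HIV protease inhibitors, lopinavir and amprenavir, each at 600 mg/kg/day for 4 days in 4 male Han Wistar rats with 4 vehicle animals of its own study. Each lopinavir vehicle animal had 2 libraries, and the flow cell was read from the first of them only. By these, 0 of 6 flow cells held both lopinavir and vehicle animals. The flow cells of the other vehicle libraries were not read, so how far flow cell and drug overlapped there is not known. In the amprenavir study 1 of 4 flow cells held both groups (1 treated and 2 vehicle animals). Their vehicles, PEG 400 for lopinavir and carboxymethylcellulose for amprenavir, differ from that of ritonavir, as do the doses, so the values are given side by side and the differences were not tested. After lopinavir, edgeR's quasi-likelihood test called 0 of 13139 genes (0%), with 839 at an unadjusted p under 0.05 and 47 called by DESeq2. After amprenavir 444 of 12470 genes changed (3.56%), 257 higher (2.06%) and 187 lower (1.5%). DESeq2 called 887.

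After amprenavir the PXR targets rose in 3 of 9 cases, with Cyp3a23/3a1 at 2.44 ± 0.24 and Ces2a at 2.65 ± 0.15 on the log2 scale, where ritonavir gave 4.06 and 4.74. Of the NRF2 targets 8 of 18 rose and 1 fell, with Akr7a3 at 1.92 ± 0.15. Ephx1 was at 1.84 ± 0.24, Abcc3 at 2.63 ± 0.17, Cyp2c24 at 5.50 ± 0.41 and Grin2c at 5.08 ± 0.61, each higher than in its vehicle group, as after ritonavir. The proteasome list gave 2 of 33 genes higher after amprenavir, beside 2.06% over all genes tested, and a median of 0.20. The interferon list gave 0 of 27 genes changed in edgeR's test, with 7 at an unadjusted p under 0.05. DESeq2 called 1 of these, and their median was -0.33. Cholesterol synthesis genes rose in 11 of 25 cases after amprenavir with 0 lower and a median of 0.63, where ritonavir gave -0.27. Cyp8b1 was at 1.96 ± 0.35 after amprenavir, higher than in its vehicle group, and at -3.73 after ritonavir. Sds was at -1.90 ± 0.25 and Cyp4a1 at -0.93 ± 0.11 after amprenavir (adjusted p = 0.0097 and 0.0024). After lopinavir the list medians were 0.11 for PXR targets, 0.27 for NRF2 targets, 0.13 for the proteasome and 0.18 for interferon-stimulated genes, and Cyp3a23/3a1 was at 0.21 ± 0.17. In edgeR's test an unadjusted p under 0.05 was found in 10 of 33 proteasome genes and 7 of 17 NRF2 targets. It was found in 1 of 9 PXR targets, 1 of 28 interferon-stimulated genes and 839 of all 13139 genes.

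**Figure D5:**
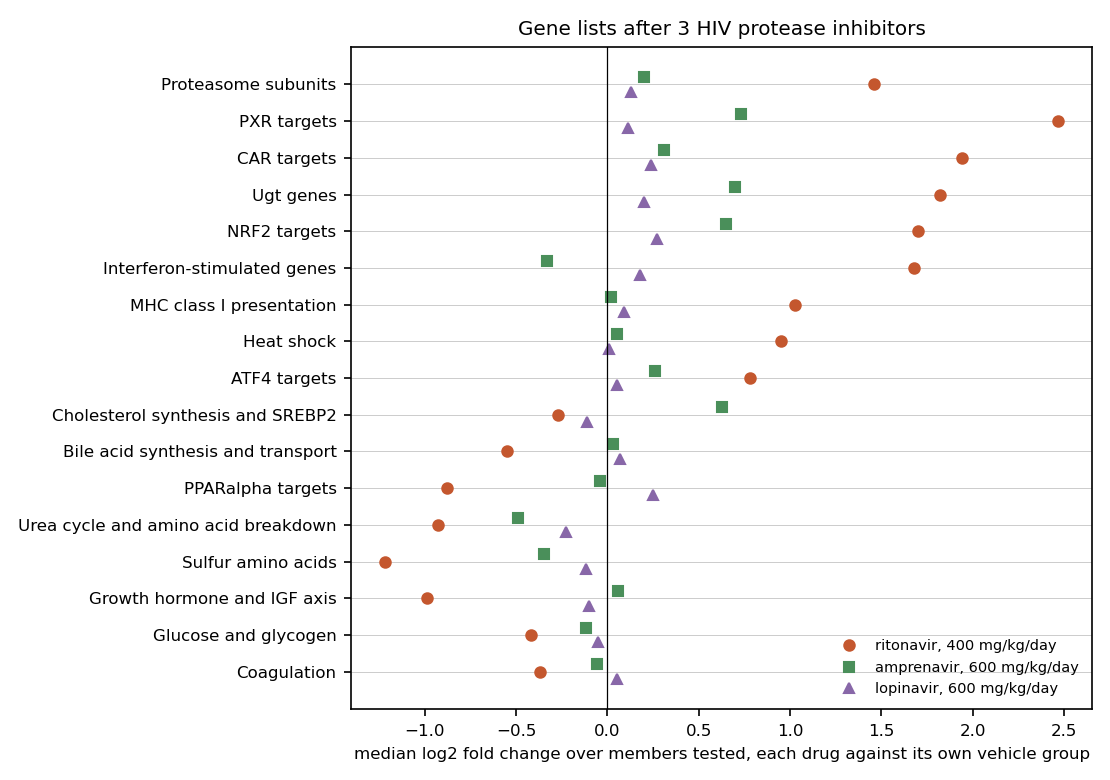
Median log2 fold change over the members tested of 17 gene lists, for ritonavir (circles), amprenavir (squares) and lopinavir (triangles), each against the vehicle group of its own study, at doses and in vehicles that differ. The ritonavir medians run from -1.22 for sulfur amino acids to 2.47 for PXR targets.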

How the data were processed

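Counts were the authors' deposited expected counts per gene in 2 tables, over Ensembl and over RefSeq identifiers, as their values show. Reads had been placed on the build Rnor 6.0, per the submitters' processing notes. Which aligner and counter were used is not given in the sources used here. Per the labels' protocols, total RNA was extracted with MagMAX from frozen liver and made into stranded poly(A) libraries. A deposited metadata table, whose entries are other than measurements, gave RIN and raw file names, from which flow cells were read. Each count table held 713 library columns not used here. Libraries of 1 animal were summed and values rounded to whole numbers. The Ugt1a locus row was dropped because its reads equal those of its 10 transcript rows, which were kept.

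The main test was edgeR 4.0.16 (R 4.3.3, limma 3.58.1), quasi-likelihood, TMM scaling, filterByExpr, ritonavir and vehicle animals only. It was run on simulated data with far fewer changed genes than here, which cannot check scaling or calls under changes this widespread. CPM are TMM-scaled. P-values set the difference between the groups against the spread between these animals, moderated across genes. Alternatives used DESeq2 1.42.0, RLE size factors, no filter, the RefSeq table, a minimum log2 fold change of 1, RIN or flow cell as covariates, 1 flow cell, 1 joint fit and each animal left out. Leaving out the 2 ritonavir animals of the flow cell that held no vehicle library, 9 gene lists and the antioxidant motif were added after seeing the data. The members, lists and rules were chosen with earlier results of these data known. Of 827 symbols in 48 gene lists and 13 marker lists, 782 matched by symbol and 4 by an older symbol. Genes named outside lists were the 12 largest changes in each direction among called genes with a mean of at least 5 CPM in 1 group and groups that did not overlap, passing over provisional names. Promoters came from RefSeq (GRCr8). Tables and figures were made with Python 3.11.15, pandas 2.3.3, scipy 1.17.1 and matplotlib 3.10.9.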

Additional observations from a re-analysis of the deposited data

Results flagged for a closer look

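Among 231 genes described above, the lowest or highest animal of a group stood far from its nearest neighbour, by Dixon's 95% criterion, in 31 of 462 groups of animals. Chance alone flags about 1 in 20 groups. Of the 31, 12 were ritonavir animal 1 and 0 were ritonavir animal 4. Values below are CPM of the animal that stood apart.

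Ritonavir animal 1 stood apart with Abcc6 at 562.7, Cth at 439.0, Cyp4a2 at 1671, Cyp8b1 at 297.3, Ephx2 at 99.0, G6pc at 958.2, Hsd17b7 at 15.4, Pck1 at 2805, Tat at 969.3, Tkt at 207.6, Tm7sf2 at 35.7 and Ugt1a2 at 61.7. In each of these it was the treated animal nearest to the vehicle group. Of the other ritonavir animals, animal 2 stood apart with Pklr at 146.9 and Slc22a7 at 60.6, animal 3 with Acacb at 127.6, animal 5 with Hspa8 at 70.0 and Mcm5 at 6.64, and animal 6 with Psma3l at 160.8 and Psmd5 at 101.7.

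Vehicle animal 1 stood apart with Cd74 at 231.7 and RT1-Da at 88.9, both of MHC class II, and with Gsr at 100.8, Mcm5 at 1.35 and Psmd14 at 39.2. Vehicle animal 2 stood apart with Abcc6 at 821, Cyp2b2 at 106, Ddit3 at 4.65 and Krt8 at 175.2, vehicle animal 3 with Gpx2 at 1.7, and vehicle animal 4 with Mat1a at 3436 and Slc16a5 at 0.049, which is its single count.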

How the results depend on the processing

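The count of genes changed by ritonavir was 4742 to 5505 when each animal was left out (2648 to 2832 higher, 2094 to 2673 lower) and stayed within 1.5 times of 5346 under every alternative but 2. Against a minimum log2 fold change of 1 it was 394 (280 higher, 114 lower), and within the flow cell that held 2 animals of each group 3184 (1649 higher, 1535 lower), a fit with fewer animals. For lopinavir DESeq2 called 47 genes (23 higher, 24 lower), and 0 to 1 genes were called when each animal was left out (0 to 1 in either direction). For amprenavir DESeq2 called 887 (441 higher, 446 lower). When each animal was left out, edgeR called 165 to 486 (105 to 274 higher, 58 to 212 lower), with under 1 in 1.5 of the main count without amprenavir animal 1 or 2 or vehicle animal 2, 3 or 4. The cause of these shifts was not tested beyond the number of animals.

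Of 4615 results for single named genes under the alternatives, 4336 kept their direction and side of the threshold, 215 lost the call, 105 of them against the minimum fold change, 39 gained one and 25 turned sign. All that turned sign were uncalled genes near 0. Clec4f was at 0.02 in the RefSeq table, 0.00 with RIN or flow cell as a covariate, 0.27 within 1 flow cell and -0.16 to 0.12 with an animal left out. Cyp3a9 was at -0.33 within 1 flow cell and -0.03 to 0.40 with an animal left out. Ddit3 was at -0.01 by RLE and DESeq2, -0.05 with flow cell as a covariate, -0.04 without the 2 ritonavir animals of the flow cell with no vehicle library and -0.08 to 0.07 with an animal left out. Hnf4a was at 0.02 with that covariate and without those 2 animals, 0.03 within 1 flow cell and -0.11 to 0.03 with an animal left out. With an animal left out Nfe2l2 was at -0.12 to 0.00 and Ppara at -0.05 to 0.32. Within the flow cell of 2 animals each 29 named genes lost the call: Acot1, Acsm3, Asns, Ciita, Cyp1a2, Cyp7a1, Dhcr7, Dio1, Erap1, Gdf15, Hspa8, Hspb1, Insig1, Lcn2, Mcm10, Mcm5, Myd88, Nqo1, Nr1i3, Otc, Ppp1r3b, Psmb8, RT1-Da, Rhbg, Sgk1, Slc27a5, Stab2, Tf and Tlr3. With flow cell as a covariate 9 did, among them Ciita (-0.81), Erap1 (0.48) and RT1-Da (-0.88). List counts that leaving out a single animal moved by more than 1.5 times included bile acid genes higher (1 to 3), cholesterol synthesis higher (1 to 2), clock genes higher (0 to 2), female-predominant genes higher (1 to 2), glucocorticoid-responsive genes lower (3 to 5), sulfotransferases lower (1 to 2), stress-induced secreted factors higher (0 to 3) pericentral genes and hepatocyte markers higher (0 to 1 in each) and genes that help the proteasome lower (0 to 2).

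No paired analysis was possible because the replicate numbers follow accession order and do not link animals of the groups. Genes under about 1 CPM rest on few counts, and 6 animals against 4 limit the precision.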

Other observations

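Further gene groups, several of them of protein quality control, were put together after the values were seen. Their counts therefore describe these genes and are no added support for the results above. Of 33 genes that feed or help the proteasome, 23 rose and 2 fell, with a median of 0.56, and 17 rose within the flow cell of 2 animals each. Zfand2a, a stress-induced protein of the proteasome, was at 27.1, 19.1, 21.3 and 24.3 CPM in the vehicle animals and ran from 183 to 302 with a median of 286 CPM in the ritonavir animals (3.54 ± 0.17, adjusted p = 3.2e-08). Usp14, a deubiquitinase of the regulatory cap, ran from 26.2 to 33.1 CPM in the vehicle animals and from 117 to 154 CPM, median 136 CPM, in the ritonavir animals (2.20 ± 0.11, adjusted p = 3.3e-08). In both the groups were far apart. The shuttle protein Ubqln2 rose by 1.47 ± 0.11, the assembly chaperone Psmd5 by 1.30 ± 0.09, the cap-bound Txnl1 by 1.43 ± 0.08, and the unfoldase Vcp with its partners Ufd1 and Nploc4 by 0.94 ± 0.08, 1.24 ± 0.10 and 1.09 ± 0.10. Of 14 genes of the cytosolic chaperonin and prefoldin, 13 rose and 0 fell, with a median of 0.69, led by Cct6a (1.17 ± 0.08). Of 15 tubulin and actin genes, whose products the chaperonin folds, 11 rose and 0 fell, Tuba1c by 1.87 ± 0.14 and Actg1 by 1.38 ± 0.25. Autophagy genes were higher in 5 of 17 cases and lower in 2 (1 to 3 when each animal was left out), and 1 higher within the flow cell of 2 animals each. Over all genes tested 22.7% were higher and 19% lower.

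Of 26 aminoacyl-tRNA synthetase and translation initiation genes 19 rose and 2 fell, with a median of 0.49, and 12 rose within the flow cell of 2 animals each. The RefSeq table held 12 of the 26 by the same symbol, of which 8 rose. Nars rose by 1.22 ± 0.09 and Yars by 0.97 ± 0.11. Purine and pyrimidine synthesis genes rose in 9 of 19 cases and fell in 4, with Prps1, which makes the ribose donor, at 1.45 ± 0.08 and Paics at 1.05 ± 0.12, and 4 rose within the flow cell of 2 animals each and 5 without vehicle animal 2. Of 25 respiratory chain genes 3 rose and 5 fell, with a median of -0.06. The count lower was 8 with RLE size factors, 9 by DESeq2 and 9 in 1 fit with the lopinavir and amprenavir studies, and 1 within the flow cell of 2 animals each. Of 21 aldehyde dehydrogenase and reductase genes 7 rose and 3 fell, with a median of -0.05. Keratin and injury genes rose in 3 of 12 cases and fell in 1, with a median of 0.20. Over all genes tested 22.7% were higher and 19% lower. The keratin pair of hepatocytes, Krt8 and Krt18, rose by 1.96 ± 0.09 and 1.53 ± 0.11. Ephx2, the soluble epoxide hydrolase, fell by 2.15 on the log2 scale, where the microsomal Ephx1 rose by 3.18.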
